A study of Mus musculus with 4 samples.

Results

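Neurexins, neuroligins and leucine-rich repeat transmembrane proteins (Lrrtm) are cell adhesion proteins that meet across the synaptic cleft. The account covers 9 genes taken from a fixed list of these families, among 20211 gene symbols counted in all libraries: the neurexins Nrxn2 and Nrxn3, the neuroligins Nlgn1, Nlgn2 and Nlgn3, and Lrrtm1, Lrrtm2, Lrrtm3 and Lrrtm4. All 9 were detected and all 9 passed the filter on low counts in each comparison between cell types. The list follows gene families and uses no threshold on measured levels.

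Nuclei of mouse hippocampus were counted in 4 RNA libraries, 1 for each genotype. The labels name a wild type, a total or global knockout of monoacylglycerol lipase (MAGL, the enzyme encoded by Mgll that degrades the endocannabinoid 2-arachidonoylglycerol), a knockout specific to astrocytes and a knockout specific to neurons. They are called here the wild-type, total, astrocyte and neuron libraries, and values are always given in that order. The Cre driver, the age and sex of the mice, the strain and the number of animals behind a library are not stated in the labels. With 1 library per genotype there was no replicate of a genotype, so genotypes were set side by side without a test, and p-values below compare cell types over the 4 libraries. Whether these came from separate animals is not stated. The library entered the fit as a block, so the p-values rest on how far class differences vary between libraries, pooled over the classes of a fit. That spread cannot be told apart from genotype, since each library bears its own.

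The libraries held between 81623644 and 193307038 UMIs (unique molecular identifiers, 1 per captured RNA molecule), with the total library the deepest in sum and the shallowest per nucleus, at a median of 4974 UMIs against 7279.5 to 8795 in the others. Scrublet called 23.5% of its barcodes doublets, against 1.72% to 5.68% elsewhere, and 81.1% of its kept nuclei were typed as male and 0.0127% as female, whereas the others were mixed (41.6% to 46.7% male). Pairs of libraries shared between 108 and 466 barcodes. Mgll itself was counted in every library: in excitatory nuclei it stood at 106, 88.5, 115 and 109 CPM (UMIs of a gene scaled to a class total of 1e+06), in inhibitory nuclei at 126, 127, 137 and 122 CPM, and in astrocyte nuclei at 390, 348, 304 and 447 CPM, from 133, 44, 28 and 75 UMIs. Where loss is labelled it was thus below wild type in some classes and not in others (inhibitory nuclei of the total and excitatory nuclei of the neuron library). Counts over a whole gene need not show the loss of part of it, so this does not check the labels, and each genotype name below is that of the label. Marker genes, none of them a member, named 31881 of 51320 kept nuclei (62.1%). Hippocampal granule cells of the dentate gyrus (3619 to 3876 CPM of their 8 markers), CA1 pyramidal cells (1308 to 1402 CPM of 7 markers) and CA2 or CA3 pyramidal cells (1717 to 1879 CPM of 10 markers) were all present with their defining markers.

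Neurexins sit mainly on the axon terminal, and neuroligins and Lrrtm proteins on the receiving side, where they bind neurexins or the heparan sulfate attached to them. Neuroligin 1 is known from excitatory synapses, neuroligin 2 from inhibitory ones and neuroligin 3 from both. Lrrtm1 and Lrrtm2 bind neurexins and hold AMPA receptors at excitatory synapses, and Lrrtm4 binds heparan sulfate proteoglycans and is known from excitatory synapses of dentate granule cells. Neurexin transcripts are spliced into many forms, which UMI counts per gene do not separate.

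The granule cells and pyramidal cells of the hippocampus differed most in Lrrtm4, Nrxn3 and Lrrtm3, and RefSeq's promoter windows of these genes are shown because they are the members that set the hippocampal cell types apart. Each runs from 250 bases before to 50 bases after an annotated start (RefSeq, GRCm38.p6), 5′ to 3′ along the gene. Capitals mark the E-box CANNTG, the palindromic motif read by helix-loop-helix factors, which was searched on both strands at once since it reads the same on each.
Lrrtm4, chr6:80018627-80018926, plus strand: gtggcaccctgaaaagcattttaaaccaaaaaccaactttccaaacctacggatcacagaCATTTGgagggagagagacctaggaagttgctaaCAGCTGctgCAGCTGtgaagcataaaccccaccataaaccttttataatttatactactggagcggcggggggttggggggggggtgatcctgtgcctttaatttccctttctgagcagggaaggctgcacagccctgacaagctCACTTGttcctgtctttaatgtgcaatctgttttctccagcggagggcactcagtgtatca
Lrrtm3, chr10:64090206-64090505, minus strand: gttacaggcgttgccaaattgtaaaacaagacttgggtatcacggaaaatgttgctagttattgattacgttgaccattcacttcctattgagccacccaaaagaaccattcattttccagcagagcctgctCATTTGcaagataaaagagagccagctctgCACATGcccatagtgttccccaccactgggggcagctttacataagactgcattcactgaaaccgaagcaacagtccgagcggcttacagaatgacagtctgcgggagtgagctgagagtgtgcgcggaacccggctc
Nrxn3, chr12:88794254-88794553, plus strand: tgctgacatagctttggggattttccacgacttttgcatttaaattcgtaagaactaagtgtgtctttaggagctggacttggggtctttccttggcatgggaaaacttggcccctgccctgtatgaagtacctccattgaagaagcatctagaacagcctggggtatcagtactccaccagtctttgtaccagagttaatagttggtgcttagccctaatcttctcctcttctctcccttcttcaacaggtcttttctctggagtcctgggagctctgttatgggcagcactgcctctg
The Lrrtm4 window held 4 E-boxes, the Lrrtm3 window 2 and the Nrxn3 window none. Of 32817 promoter windows of this length, 72.3% held at least 1, so the motif is common and marks nothing particular to these genes. Lrrtm4 has a second listed start with 2 E-boxes, and Nrxn3 has 2 further starts with 1 and 5. Every Nrxn3 window lies inside the gene span given below, downstream of its start at chr12:88722876. Whether the Nrxn3 window shown is a promoter used in these nuclei was not tested. Windows were taken for 6 of the 9 members, and Lrrtm2 was left out of the search.

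The genes differ widely in size and place (GENCODE M21, GRCm38; the submitters' processing notes name mm10). Nrxn3 spans chr12:88722876-90334935 on the plus strand, Nlgn1 chr3:25426215-26332460 on the minus strand and Lrrtm4 chr6:80018877-80810143 on the plus strand. Nrxn2 lies at chr19:6418731-6544169 (plus), Nlgn2 at chr11:69823122-69837784 (minus), Nlgn3 at chrX:101299168-101325963 (plus), Lrrtm1 at chr6:77242689-77257791 (plus) and Lrrtm3 at chr10:63928472-64090277 (minus). Counts of nuclear RNA grow with the length of a gene and its introns, so a gene's level is compared only with its own level in other cell types. Lrrtm1, Lrrtm2 and Lrrtm3 each lie inside an alpha-catenin gene on the opposite strand, which is taken up below.

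Lrrtm4 was the member that set dentate granule cells apart. Its level there was 9447, 9852, 9693 and 8908 CPM, against 1352, 2048, 1761 and 1493 CPM in CA1 and 1382, 1667, 1441 and 1459 CPM in CA2/CA3. Every granule value lay above every pyramidal value. The log2 difference was 2.48 (SE 0.07; adjusted p = 6.3e-19, edgeR) against CA1 and 2.63 (SE 0.08; adjusted p = 3.1e-19, edgeR) against CA2/CA3. In nuclei thinned to 1000 UMIs, a Lrrtm4 molecule was seen in 99.7% of wild-type granule nuclei, 26.1% of CA1 nuclei, 55.5% of CA2/CA3 nuclei and 15.8% of oligodendrocyte nuclei, a type in which free RNA can also give UMIs (unthinned: 99.8%, 42.6%, 92.9% and 19.1%, at median depths of 8052, 11522.5, 16413 and 2202 UMIs).

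Nrxn3 ran the other way. It stood at 1307, 1540, 1658 and 1521 CPM in granule cells, 5601, 5618, 5344 and 5983 CPM in CA1, and 8275, 8254, 8456 and 8419 CPM in CA2/CA3. No values overlapped between the 3 classes. Granule cells lay below CA1 by a log2 difference of -1.95 (SE 0.05; adjusted p = 5.4e-20, edgeR) and below CA2/CA3 by -2.52 (SE 0.05; adjusted p = 9.0e-22, edgeR), and CA1 lay below CA2/CA3 by -0.57 (adjusted p = 9.6e-10, edgeR). At 1000 UMIs, 50.3% of wild-type granule nuclei still held a Nrxn3 molecule, against 92.7% in CA1 and 96.9% in CA2/CA3.

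As a gate average, Lrrtm3 fell stepwise from granule cells over CA1 to CA2/CA3. Its levels were 202, 229, 232 and 201 CPM in granule cells, 111, 150, 126 and 126 CPM in CA1, and 44.2, 62.1, 36.5 and 46.6 CPM in CA2/CA3. No values overlapped between the classes. The CA1 step did not hold for most CA1-gated nuclei. Clusters 1 and 4 of that gate, described below, held 44.0% and 29.0% of its nuclei, at 18.0 and 6.54 CPM of Lrrtm3. The CA2/CA3 average did not hold for most of its nuclei either. Its 3 clusters of at least 100 nuclei held 85.6% of the gate. Lrrtm3 stood at 18.1 CPM in the largest, cluster 5, at 37.1 CPM in cluster 26 and at 4.88 CPM in cluster 32. All lay below the gate mean of 47.4 CPM, so the nuclei outside these clusters raised that mean. They also enter the differences from CA2/CA3. The log2 difference of granule cells was 0.71 (SE 0.08; adjusted p = 7.2e-08, edgeR) against CA1 and 2.15 (SE 0.09; adjusted p = 1.2e-15, edgeR) against CA2/CA3.

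The other members differed less between these 3 classes. Nlgn1 rose in the same order as Nrxn3, from 3689, 3670, 3704 and 3669 CPM in granule cells to 5110, 5009, 4897 and 4846 CPM in CA1 and 6521, 6457, 6709 and 6374 CPM in CA2/CA3, with log2 differences of granule cells of -0.47 and -0.87. Nlgn3 was higher in granule cells by 0.48 and 0.78. Its 4 granule values, 46.8, 51.0, 48.1 and 52.9 CPM, all lay above those of CA1 (30.0 to 37.6 CPM) and CA2/CA3 (25.3 to 30.5 CPM). Nlgn2 was lower in granule cells than in CA1 by -0.30 and did not pass the test against CA2/CA3 (-0.06, adjusted p = 0.32, edgeR). Lrrtm2 was lowest in CA2/CA3, at 15.2, 17.7, 17.3 and 16.6 CPM, and its call for granule cells against CA2/CA3 was lost in 4 alternatives. Lrrtm1 and Nrxn2 differed between granule cells and each pyramidal class by 0.20 or less, and each of these 4 calls was lost in at least 1 alternative.

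In counts, granule cells against CA1 had 3 members higher and 6 lower, where 30.8% of all 15635 genes tested were called higher and 30.3% lower. Granule cells against CA2/CA3 had 5 higher and 3 lower (31.5% and 30.7% of all genes). CA1 against CA2/CA3 had 5 higher and 2 lower (22.6% and 22%). The median log2 difference of the 9 members was -0.15, 0.17 and 0.23 in these contrasts, beside 0.01 over all genes in each. With so many of all genes called, the counts of members are not read as a result.

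**Figure D1:**
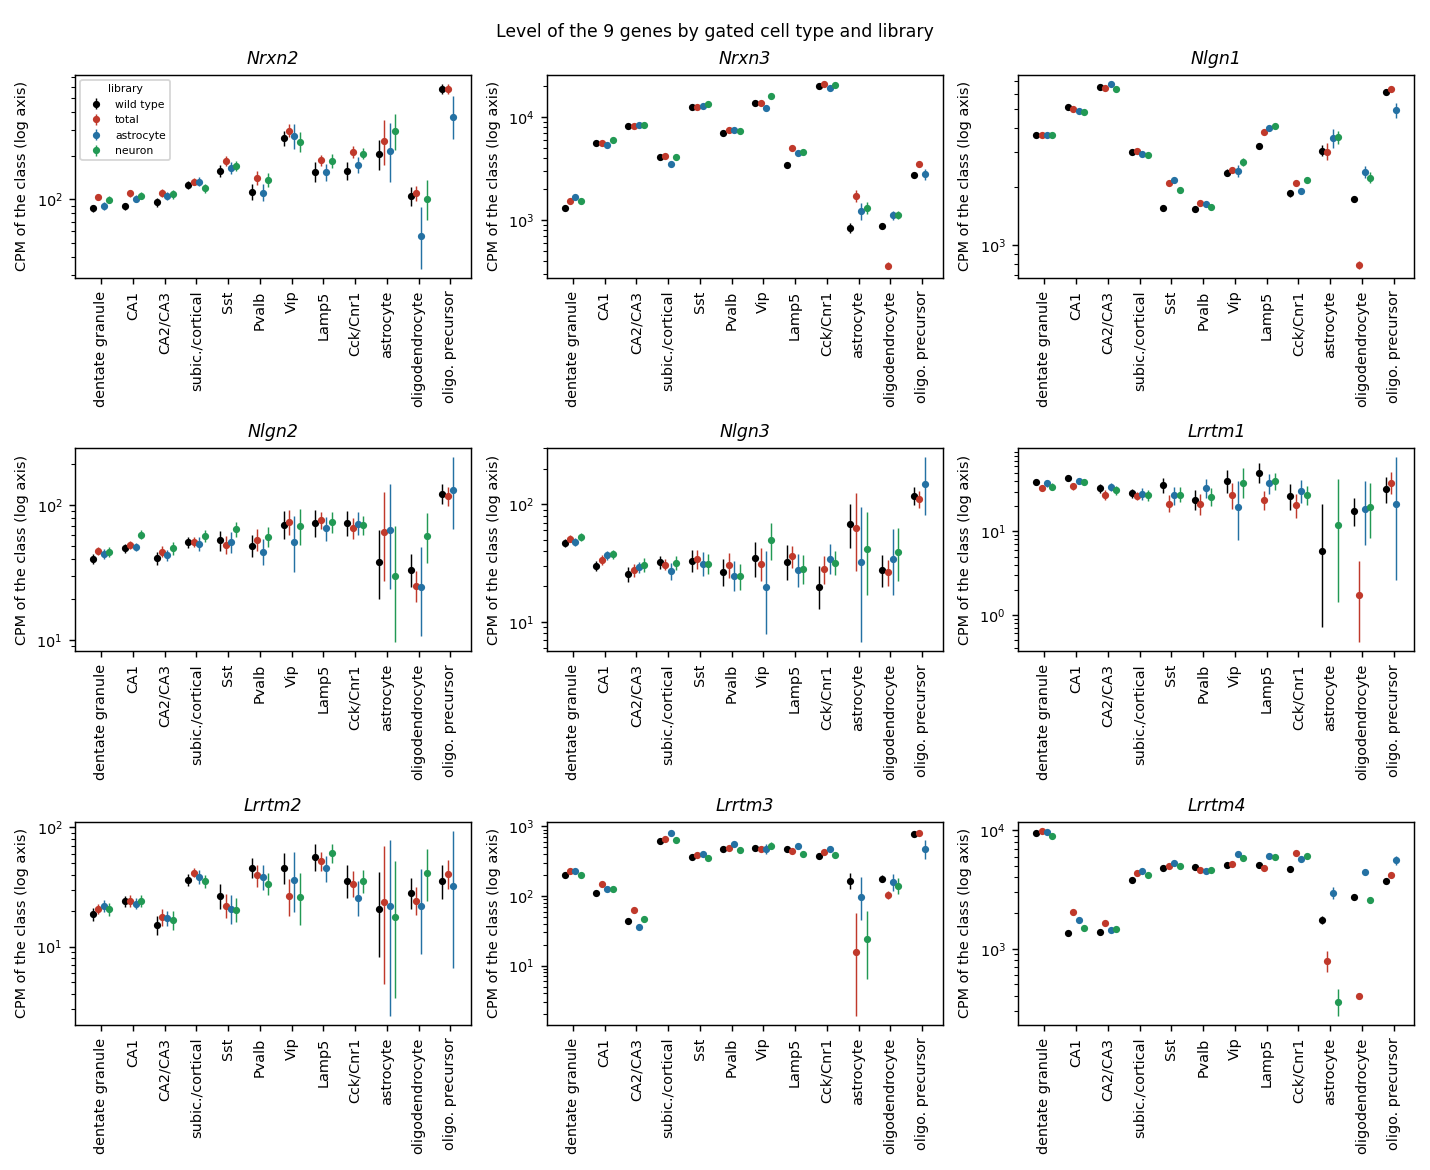
Level of each member (CPM, log axis) in 12 gated cell types, 1 point per library with 95% Poisson intervals for counting error. Lrrtm4 peaks in dentate granule cells near 9475 CPM, Nrxn3 in Cck/Cnr1 inhibitory nuclei near 20148 CPM, and Nrxn2, Nlgn2, Nlgn3 and Lrrtm3 in oligodendrocyte precursors, where the range of Lrrtm3 overlaps that of subicular or cortical nuclei. Libraries in which a gene had no UMI are not drawn.

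The CA1 average of Lrrtm4 hid a wide spread among CA1-gated nuclei. The 10% of wild-type CA1 nuclei with the most Lrrtm4 UMIs held 69.1% of all of them (total 56.9%, astrocyte 61.5%, neuron 64.7%), whereas the top 10% of granule nuclei held 21.4% to 24.6% and of CA2/CA3 nuclei 35.5% to 38.8%. The gated CA1 nuclei fell into 6 clusters of at least 100 nuclei, found without any member, which held 93.6% of them. Lrrtm4 stood at 62.7 CPM in cluster 4 (1700 nuclei) and at 6820 CPM in cluster 13 (519 nuclei), a ratio of 109 within a single gate. In cluster 13 it was 6393, 7251, 6894 and 6569 CPM in the 4 libraries, and in cluster 4 it was 39.1, 98.4, 53.3 and 63.4 CPM. The 3 clusters with high Lrrtm4 (13, 33 and 16) lay between 3278 and 7251 CPM in every library, and the other 3 (1, 3 and 4) at 612 CPM or less.

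Lrrtm3 varied over the same clusters by a ratio of 75.5, from 6.54 CPM in cluster 4 to 494 CPM in cluster 16, and stood at 445 CPM in cluster 13. Nrxn3 ran the other way again, at 7254 CPM in cluster 4, 3988 CPM in cluster 13 and 3272 CPM in cluster 16. Nlgn1, Nlgn2, Nlgn3, Lrrtm1 and Nrxn2 varied by ratios of 1.21 to 1.74 between the clusters, and Lrrtm2 by 2.68. These are descriptions of clusters, without a test.

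By their leading genes, cluster 13 was marked by Hs3st2, Klhl1 and Ikzf2, cluster 16 by Unc13c, Vwc2l and Car10, cluster 33 by Bmpr1b, Rreb1 and B230110G15Rik, and cluster 4 by B230110G15Rik, Dach1 and Tenm3. Markers of granule cells summed to 172 CPM in cluster 13 and 58.4 CPM in cluster 33, beside 33.5 CPM in cluster 4, 51.1 CPM in cluster 1 and 199 CPM in the Lrrtm4-poor cluster 3, and to at least 3619 CPM in granule cells themselves. CA1 markers summed to 1211 CPM in cluster 13 and 1292 CPM in cluster 4. Cluster 16 held fewer CA1 markers (902 CPM) and more granule markers (365 CPM). Clusters 16 and 3 bore no cell type name as whole clusters. Cluster 13 was named CA1 at a mean marker score of 0.52, beside 0.71 in cluster 33, 0.96 in cluster 1 and 0.999 in cluster 4. Subicular or cortical nuclei averaged 4232 CPM of Lrrtm4, 686 CPM of Lrrtm3 and 3956 CPM of Nrxn3. Their markers were not summed by cluster, so whether nuclei of clusters 13, 16 and 33 are CA1 cells was not tested.

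**Figure D2:**
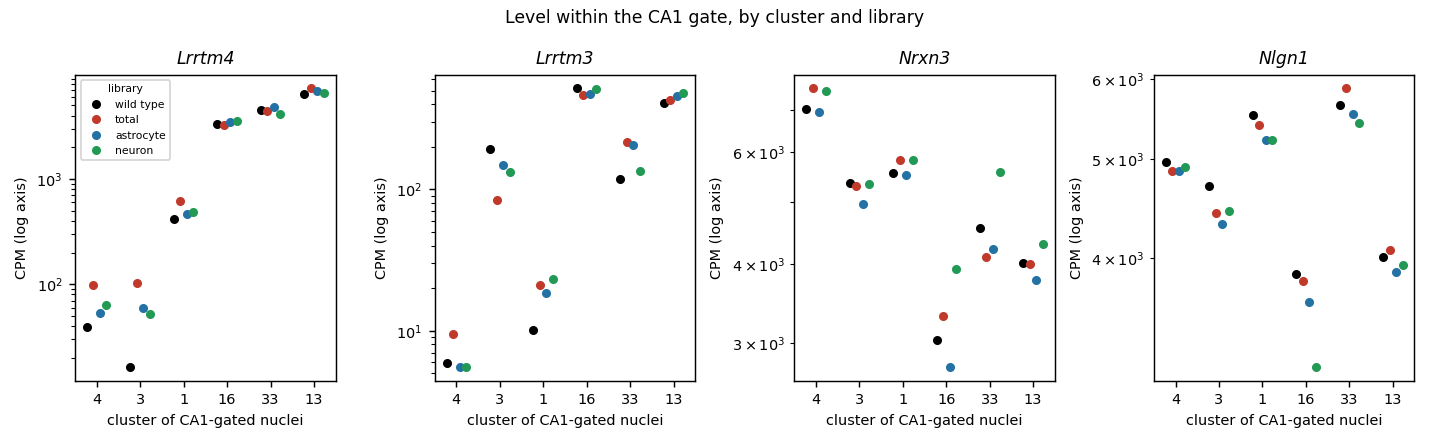
Level of 4 members (CPM, log axis) in the 6 larger clusters of CA1-gated nuclei, 1 point per library. Lrrtm4 and Lrrtm3 were high in clusters 16 and 13 and low in clusters 4 and 1 in every library, whereas Nrxn3 was highest in cluster 4.

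As sums over their types, inhibitory nuclei held more Nrxn3 and less Nlgn1 than excitatory nuclei. Nrxn3 was 10880, 11186, 10824 and 11741 CPM in inhibitory nuclei and 4363, 4349, 4847 and 4797 CPM in excitatory nuclei, a log2 difference of 1.16 (SE 0.29; adjusted p = 0.0029, edgeR). Nlgn1 was 1986, 2525, 2480 and 2386 CPM against 4511, 4359, 4783 and 4470 CPM, a difference of -1.07 (SE 0.27; adjusted p = 0.0029, edgeR). In both genes the sums did not overlap, but not every single type followed. Nrxn3 averaged 8351 CPM in CA2/CA3 nuclei, above Pvalb (7345 CPM) and Lamp5 nuclei (4382 CPM). Nlgn1 averaged 3791 CPM in Lamp5 nuclei, above subicular or cortical nuclei (2977 CPM). The Nrxn3 call was lost with cells taken by cluster (1.11, adjusted p = 0.054, edgeR), and its adjusted p in the other alternatives lay between 4.1e-05 and 0.026.

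Nrxn2 (0.59) and Lrrtm2 (0.49) were also higher in inhibitory nuclei, and Lrrtm1 (-0.38) and Nlgn3 (-0.36) lower, the Lrrtm1 call being lost in 5 alternatives. Nlgn2, the neuroligin of inhibitory synapses, was 59.8, 64.0, 57.3 and 67.9 CPM in inhibitory and 44.7, 48.4, 45.7 and 52.8 CPM in excitatory nuclei, which did not pass the test (0.26, adjusted p = 0.095, edgeR). Lrrtm3 (0.77, adjusted p = 0.062) and Lrrtm4 (0.09, adjusted p = 0.90) did not pass it either. Nlgn2 passed in 4 alternatives and Lrrtm3 in 5, both of them without the total library (adjusted p = 0.0023 and 0.0028, edgeR). In all, 3 members were called higher and 3 lower, where 25% of 13153 genes were called higher and 24.7% lower. Excitatory nuclei are a sum over granule, CA1, CA2/CA3, subicular or cortical and mossy nuclei, so the mix of these types enters this contrast, and the fit shares its spread with glia. Markers of excitatory cells summed to 22.7 to 28.5 CPM in the inhibitory gate.

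The inhibitory subtypes spread Nrxn3 further. It was 19937, 20909, 19315 and 20430 CPM in nuclei marked by Cnr1 and Cck, the interneurons known for the CB1 receptor that 2-arachidonoylglycerol activates. Vip nuclei followed at 13821, 13770, 12372 and 16061 CPM and Sst nuclei at 12626, 12564, 12735 and 13294 CPM, whose ranges overlapped. Pvalb nuclei held 7345 ± 243 CPM (SD, n = 4 libraries) and Lamp5 nuclei 4382 ± 685 CPM, the lowest of the 5 subtypes and less than CA1. The range of Cck/Cnr1 nuclei lay above that of every other class. Cnr1 is itself one of the genes that define this subtype.

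Nlgn1 showed a different order among the subtypes. It was highest in Lamp5 nuclei at 3791 ± 395 CPM, apart from Vip nuclei at 2469 ± 135 CPM, and lowest in Pvalb nuclei at 1597 ± 52.4 CPM, whose range overlapped those of Sst nuclei. Lrrtm2 was also highest in Lamp5 nuclei at 53.6 ± 6.58 CPM, with a range that overlapped that of Pvalb nuclei. Nrxn2 was highest among the subtypes in Vip nuclei at 272 ± 20.7 CPM. The subtype means of Lrrtm4 ran from 4688 to 5755 CPM and those of Lrrtm3 from 376 to 493 CPM.

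Between the 2 developmental branches of inhibitory cells (MGE-type and CGE-type, named for the medial and caudal ganglionic eminences), 6 members were lower in MGE-type nuclei and 0 were higher. Of all 15635 genes, 17.7% were called lower and 17.2% higher, and the median of the 9 members was -0.28 beside -0.01 over all genes. Nlgn1 was lower by -0.58 (SE 0.05; adjusted p = 9.9e-10, edgeR), Nrxn3 by -0.52 (SE 0.05; adjusted p = 8.8e-09, edgeR) and Nrxn2 by -0.48 (SE 0.05; adjusted p = 5.3e-09, edgeR). Nlgn2 was lower by -0.38 (adjusted p = 3.4e-05, edgeR). The Nrxn3 difference is one of branch sums. Lamp5 nuclei, whose marker list shares Adarb2 with the CGE-type list, averaged 4382 CPM of Nrxn3, below Pvalb (7345 CPM) and Sst nuclei (12805 CPM). Cck/Cnr1 nuclei, which share it too, averaged 20148 CPM. The part of each subtype in the branch difference was not tested. The calls for Lrrtm2 (-0.28) and Lrrtm4 (-0.20) were lost with the cells taken by cluster, where both stood slightly above 0 (0.018 and 0.050). Lrrtm2 also lost its call without the total or the neuron library (adjusted p = 0.12 and 0.066, edgeR), and Lrrtm4 in 5 further alternatives, among them without the astrocyte or the neuron library (adjusted p = 0.095 and 0.13, edgeR). All 9 fitted differences were below 0, so 0 members were higher at an unadjusted p under 0.05 as well, and DESeq2 also called 0 higher.

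Glia showed a pattern of their own. Oligodendrocyte precursors, the dividing glia that receive synapses from neurons, held the highest levels of Nrxn2, Nlgn2 and Nlgn3 of all 12 classes, with ranges apart from the next class. Nrxn2 was 584, 581 and 374 CPM (wild-type, total and astrocyte libraries; the neuron library had under 20 such nuclei and was left out) against 96.3 to 113 CPM in excitatory nuclei, a log2 difference of 2.03 (SE 0.19; adjusted p = 1.0e-07, edgeR). Nlgn3 was 119, 111 and 150 CPM against 35.2 to 39.9 CPM (1.41, SE 0.13; adjusted p = 1.1e-07, edgeR), and Nlgn2 was 121, 116 and 128 CPM against 44.7 to 52.8 CPM (1.11, SE 0.17; adjusted p = 4.1e-05, edgeR).

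Lrrtm3 (786, 813 and 470 CPM; 1.20, adjusted p = 0.013, edgeR) and Lrrtm2 (0.40, adjusted p = 0.048, edgeR) were also higher in precursors, and Nrxn3 lower (-0.87, adjusted p = 0.036, edgeR). Thus 5 members were called higher and 1 lower, where 20.5% of all genes were called higher and 24.9% lower. The calls for Lrrtm2 and Nrxn3 were lost in 8 and 5 alternatives. Without the wild-type library 3 members were called, and Lrrtm3 was not among them. The astrocyte library had only 21 precursor nuclei, whose excitatory markers summed to 289 CPM against 25.2 and 22.3 CPM in the wild-type and total libraries, and the part of these in the values was not tested.

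Astrocytes held more Nrxn2 than excitatory nuclei (205, 253, 217 and 298 CPM; 0.69, SE 0.19, adjusted p = 0.0066, edgeR). This call was lost without the neuron library (adjusted p = 0.071, edgeR) and with male nuclei only, and that of Nlgn1 without the wild-type library (adjusted p = 0.077, edgeR). Members lower in astrocytes were Lrrtm1 (-3.17), Nrxn3 (-2.37), Lrrtm4 (-2.37), Lrrtm3 (-2.04) and Nlgn1 (-0.96), the 1 higher and 5 lower standing against 14.9% and 23.1% of all genes, with a median of -0.96 for the members and -0.26 over all genes. Nlgn1 nonetheless stood at 3064, 3028, 3551 and 3585 CPM there, and 87.8% of wild-type astrocyte nuclei held a Nlgn1 molecule at 1000 UMIs, against 97.8% of CA1 nuclei. Lrrtm1 had 4 UMIs in all astrocyte nuclei.

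In mature oligodendrocytes 0 members were called higher and 7 lower (26.4% and 31.9% of all genes), with all 9 fitted differences below 0, so that 0 were higher at an unadjusted p under 0.05, and 0 in DESeq2. The largest differences were those of Nrxn3 (-2.62), Lrrtm1 (-1.93) and Nlgn1 (-1.59). Levels in this class differed widely between libraries. Lrrtm4 stood at 2714, 400, 4483 and 2583 CPM, Nlgn1 at 1723, 794, 2374 and 2223 CPM and Nrxn3 at 879, 360, 1106 and 1112 CPM, while the 7 excitatory markers, all detected, summed to 164, 43.7, 289 and 185 CPM in the same nuclei. The total library was lowest and the astrocyte library at or near the highest in all of these. Lrrtm4 in this class was held by a minority of nuclei: 15.8%, 5.78%, 40.0% and 30.5% had a molecule at 1000 UMIs, and the 10% of wild-type nuclei with the most Lrrtm4 UMIs held 91.5% of them, so its CPM is not the level of a usual oligodendrocyte nucleus. The part of excitatory RNA in these oligodendrocyte levels was not tested. Without the total library 4 members were called, and Lrrtm3, Lrrtm4 and Nlgn3 lost their call (adjusted p = 0.080, 0.22 and 0.11, edgeR). Lrrtm3 also lost it without the astrocyte or the neuron library, and Lrrtm4 in 6 alternatives in all, DESeq2 and the fits without the wild-type or the neuron library included. In the astrocyte gate the same markers summed to 205, 31.6, 402 and 131 CPM, and Lrrtm4 to 1755, 783, 2975 and 357 CPM.

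**Figure D3:**
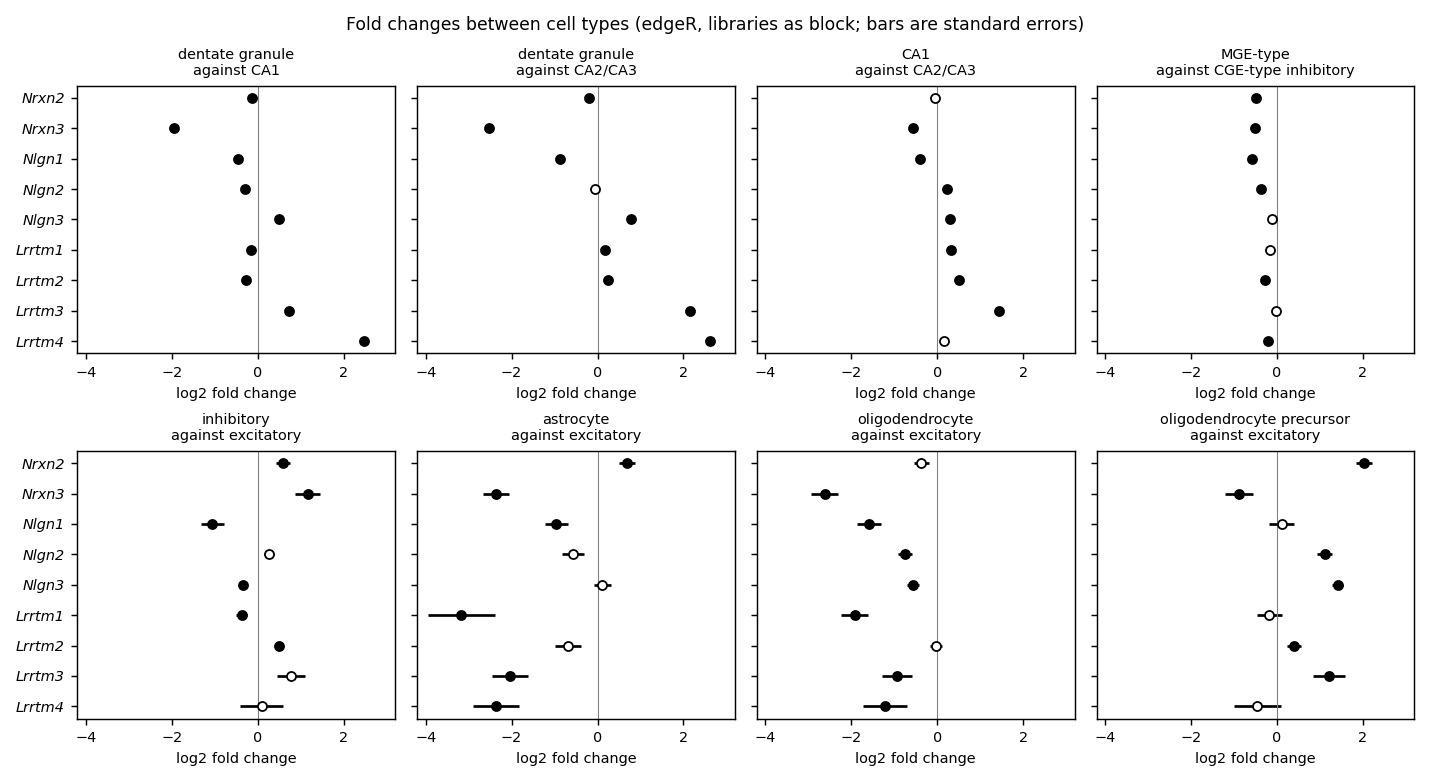
Log2 fold change of each member in 8 contrasts between cell types, with standard errors (edgeR on sums per library, library as block). Filled points passed an adjusted p of 0.05. The dentate granule panels show Lrrtm4 at 2.48 and 2.63 and Nrxn3 at -1.95 and -2.52, and the precursor panel Nrxn2 at 2.03.

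Lrrtm1, Lrrtm2 and Lrrtm3 lie inside Ctnna2, Ctnna1 and Ctnna3, genes of alpha-catenins that tie cadherins to actin. Each Lrrtm gene lies on the strand opposite to its host. No label states whether the counting used strand, and the part of host reads in the Lrrtm counts was not tested. In 4 contrasts Lrrtm3 and Ctnna3 differed by like amounts: 0.71 and 0.53 for granule cells against CA1, 2.15 and 2.09 against CA2/CA3, 1.44 and 1.56 for CA1 against CA2/CA3, and 1.20 and 1.23 for precursors against excitatory nuclei. The contrasts among granule cells, CA1 and CA2/CA3 rest on the same class sums, so that of CA1 against CA2/CA3 follows from the others. For inhibitory against excitatory nuclei Lrrtm3 stood at 0.77, which did not pass the test, and Ctnna3 at 0.95. In other contrasts the amounts were not alike. Between MGE-type and CGE-type nuclei Ctnna3 was higher by 0.25 (adjusted p = 0.0059, edgeR), where Lrrtm3 stood at -0.015 (SE 0.08) and did not pass the test, and in astrocytes Ctnna3 stood at -0.19 (adjusted p = 0.75, edgeR) beside -2.04 for Lrrtm3. In mature oligodendrocytes the 2 genes went opposite ways, with Ctnna3 higher by 3.64 (SE 0.35; adjusted p = 1.2e-07, edgeR) at 991 ± 518 CPM, and Lrrtm3 lower by -0.93 at 145 ± 31.9 CPM.

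The other 2 pairs followed each other less. Of the 12 classes, Lrrtm1 had its highest mean in CA1 (39.3 CPM, with a range overlapping that of Lamp5 nuclei), where Ctnna2 was 1323 CPM, and lowest in astrocytes (4.44 CPM), where Ctnna2 was 1339 CPM. Lrrtm2 had its highest mean of the 12 in Lamp5 nuclei (53.6 CPM), and Ctnna1 in astrocytes (137 CPM). Thalamic nuclei, outside the 12 and with at least 20 nuclei in 2 libraries only, held more of both, at 61.4 to 65.6 CPM of Lrrtm1 and 61.4 to 70.6 CPM of Lrrtm2. Over the 12 classes, which share libraries and depth, the Pearson correlation of log2 CPM was 0.52 for Lrrtm3 and Ctnna3, 0.35 for Lrrtm1 and Ctnna2 and 0.21 for Lrrtm2 and Ctnna1, and Spearman's rho was 0.69, 0.06 and 0.47.

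**Figure D4:**
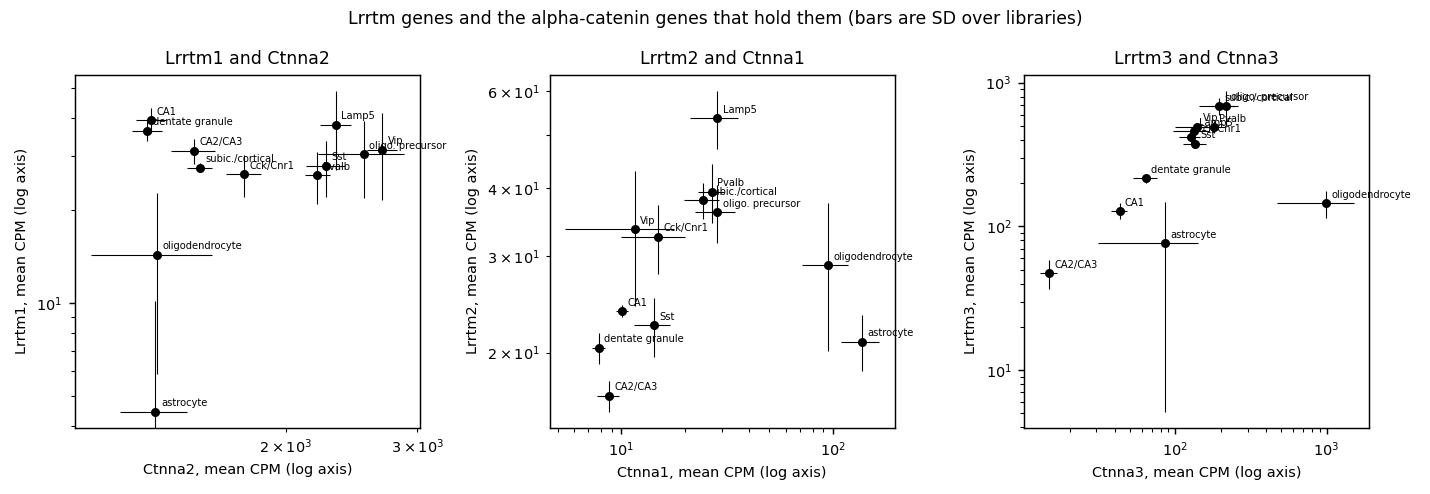
Mean level of 3 Lrrtm genes against the alpha-catenin gene that holds each (CPM, both axes log), 1 point per cell type with SD over libraries. Oligodendrocytes stand apart for Lrrtm3 and Ctnna3 at 145 and 991 CPM.

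Other genes of the pathway came from 8 lists of 82 genes in all, of which 77 or 78 were tested per contrast. In granule cells against CA1, 26 of 77 were higher and 41 lower, beside 30.8% and 30.3% of all genes. In granule cells against CA2/CA3 34 were higher and 34 lower (31.5% and 30.7% of all genes), and in CA1 against CA2/CA3 39 were higher and 16 lower (22.6% and 22% of all genes). The cerebellin and C1q-like list, secreted proteins that bridge neurexins to receptors, had 3 of 7 tested genes higher and 3 lower in granule cells than in CA1. Among the higher were C1ql2 (5.95 against CA1 and 5.34 against CA2/CA3) and C1ql3 (2.38 and 4.36), known mossy fibre ligands, and Cbln4 was lower than in CA1 by -4.23. Gpc4, a glypican that can act as a ligand of Lrrtm4, was higher in granule cells by 2.28 (SE 0.08) and 4.82 (SE 0.11), at 208 to 246 CPM against 43.2 to 47.2 CPM in CA1. The glypicans Gpc5 (-4.74 and -1.99) and Gpc6 (-4.16 and -3.08) were lower there, and their list had 2 of 10 genes higher and 6 lower against CA1.

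Among regulators of neurexin splicing Khdrbs3 differed most. This RNA-binding protein, which controls an alternatively spliced segment of neurexins that sets their choice of partner, was lower in granule cells than in CA1 by -4.81 (SE 0.07; adjusted p = 1.5e-24, edgeR) and than in CA2/CA3 by -5.34 (SE 0.07), at 24.6 to 33.3 CPM of Khdrbs3 against 703 to 812 and 1011 to 1195 CPM. The related Khdrbs2 was highest of the 3 classes in CA1 (log2 difference of 1.80 from CA2/CA3, and -1.52 for granule cells against CA1). Of the 9 genes of this list, 5 were higher and 4 lower in granule cells than in CA1.

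Latrophilins, Flrt proteins and teneurins, another adhesion system across the synapse, had 3 of 10 genes higher and 7 lower in granule cells than in CA1, with a list median of -1.65. Adgrl2 (-5.49), Tenm3 (-3.66) and Flrt1 (-3.37) led. Among regulators of neuroligins and partners at inhibitory synapses, Mdga1, which binds neuroligins and blocks their hold on neurexins, was lower in granule cells than in CA1 by -1.86 (Igsf9b of the same list by -3.59) and in inhibitory than in excitatory nuclei by -4.31 (SE 0.16; adjusted p = 3.7e-13, edgeR). Il1rap, a postsynaptic ligand of receptor phosphatases, was higher in granule cells than in CA1 by 2.21.

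Between inhibitory and excitatory nuclei 20 of 78 list genes were higher and 20 lower, beside 25% and 24.7% of all genes. The neurexophilins Nxph1 (5.95, SE 0.42) and Nxph2 (4.77, SE 0.15), secreted neurexin ligands, were among the higher, and C1ql2 (-5.43) and C1ql3 (-4.97) among the lower. MGE-type nuclei had 23 of 77 higher and 29 lower than CGE-type nuclei (17.2% and 17.7% of all genes), with Cbln2 lower by -4.60 and Nxph2 higher by 3.59. Against excitatory nuclei, 6 of 78 were higher and 44 lower in astrocytes (14.9% and 23.1% of all genes), 8 higher and 51 lower in oligodendrocytes (26.4% and 31.9%), and 16 higher and 29 lower in precursors (20.5% and 24.9%). In precursors Nxph1 (5.78), Slitrk6 (5.85) and Gpc5 (3.70) were higher, and Iqsec3 (-5.12), Adgrl2 (-4.80) and Lin7b (-4.62) lower.

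The genes whose mean log2(CPM + 1) over 16 classes followed a member most closely, among 12410 genes, were Camk1g for Nrxn3 (r = 0.96), Tspan6 for Nrxn2 (0.95), Frmd6 for Nlgn1 (0.92), Tmem121 for Nlgn2 (0.93) and Ankrd11 for Nlgn3 (0.95). For the Lrrtm genes they were Rfng for Lrrtm1 (0.97), Ndufs8 for Lrrtm2 (0.86), Usp13 for Lrrtm3 (0.92) and Ablim3 for Lrrtm4 (0.94). The next after them were Zfp618 and Gm16083 for Nrxn3, Tmem176a for Nrxn2, Fry and Pigg for Nlgn1, Zfp354c and Hyal2 for Nlgn2, Tdrd7 and Asb5 for Nlgn3, Pianp and Ccdc149 for Lrrtm1, Ppt1 for Lrrtm2, Xkr6 and Pknox2 for Lrrtm3, and Il20rb and Psip1 for Lrrtm4. Some of the 16 classes contain others (excitatory, inhibitory and its branches), so the points are not independent.

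Genotypes were set side by side as ratios to wild type. All ratios share the wild-type library as their base and their intervals are exact 95% ones for counting error only. Of 27 ratios per class (9 members in 3 knockout libraries), 0 lay past 1.5-fold of wild type in granule cells, 1 in CA1, 0 in CA2/CA3 and 1 in inhibitory nuclei. Over all genes with at least 100 UMIs in the class, the share past 1.5-fold in the total, astrocyte and neuron libraries was 7.19%, 7.04% and 6.76% in granule cells, 7.85%, 4.68% and 5.87% in CA1, 7.44%, 4.7% and 6.8% in CA2/CA3, and 9.38%, 8.08% and 7.89% in inhibitory nuclei. These counts of members lie near the shares over all genes and are not read as a result. They also moved with the setting, to 7 in CA1 with nuclei thinned to 1000 UMIs and to 3 in CA1 and 3 in CA2/CA3 with cells taken by cluster. The share over all genes was not counted at those settings, so these counts are not read as a result either.

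Lrrtm4 in CA1 of the total library was the one value past 1.5-fold above wild type, at 2048 against 1352 CPM (log2 ratio 0.60, interval 0.57 to 0.63, at the 97.5th percentile of all genes). The ratio was 0.38 in the astrocyte library and 0.14 in the neuron library. Granule cell markers in the CA1 gate moved in the same order (125, 99.9 and 86.6 CPM, against 82.5 CPM in wild type). The share of CA1 nuclei in the Lrrtm4-rich cluster 13 was 6.86% in wild type and 9.19%, 10.4% and 8.03% in the others, that of cluster 33 was 2.32%, 4.10%, 3.73% and 2.35%, and that of cluster 16, the other Lrrtm4-rich one, was 6.31%, 5.96%, 4.61% and 6.57%. The part of either in the result was not tested. Within cluster 13 the ratio was 0.18, 0.11 and 0.04, within cluster 16 it was -0.02, 0.06 and 0.08, within cluster 33 it was -0.04, 0.10 and -0.12, and within the larger, Lrrtm4-poor clusters 1 and 4 it was 0.55, 0.16 and 0.21, and 1.33, 0.45 and 0.70. In the small cluster 3 (23 wild-type nuclei) it was 2.65, 1.86 and 1.66, from 16.5 CPM in wild type. In male nuclei only, the ratio of the total library was 0.82. Lrrtm3 in CA1 was also above wild type in each library, with ratios of 0.44, 0.18 and 0.18. Within clusters its ratios did not run one way: they were 1.06, 0.86 and 1.20 in cluster 1 (from 10.1 CPM in wild type), 0.86, 0.80 and 0.18 in cluster 33 and -1.19, -0.37 and -0.54 in cluster 3, and lay between -0.15 and 0.66 in clusters 4, 13 and 16. With cells taken by cluster the Lrrtm3 ratios in CA1 were past 1.5-fold in the total (0.82) and astrocyte (0.62) libraries. In CA2/CA3 the Lrrtm3 ratios were 0.49, -0.28 and 0.08 by gate and 1.26, 1.01 and 1.44 by cluster, from 106 wild-type UMIs, so the way cells were taken changed the direction in the astrocyte library.

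Lrrtm1 in inhibitory nuclei of the total library was the value past 1.5-fold below wild type, at 21.7 against 33.4 CPM, from 310 and 323 UMIs (log2 ratio -0.62, interval -0.85 to -0.39, at the 5.6th percentile). It was below wild type in the MGE-type (-0.51) and CGE-type (-0.67) branches alike. In the total library Lrrtm1 also lay below wild type in granule cells (-0.24), CA1 (-0.33) and CA2/CA3 (-0.26). Thinned to 1000 UMIs, the Lrrtm1 ratios in CA1 were -0.995, -0.76 and -0.77 in the total, astrocyte and neuron libraries, from 67 wild-type UMIs. That library differs from wild type in the sex of its nuclei as well as in its label, and with male nuclei only the inhibitory ratio was -0.584, just short of 1.5-fold. With TMM scaling it was -0.56, also short of it.

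Smaller differences ran the same way in all 3 knockout libraries. Nrxn3 in granule cells was above wild type by 0.24, 0.34 and 0.22 (intervals 0.21 to 0.26, 0.31 to 0.37 and 0.19 to 0.25). The 90th percentile of the ratios of all genes in granule cells was 0.24, 0.26 and 0.28 in the same libraries. CA1 markers in granule nuclei summed to 20.6, 19.5, 23.0 and 22.9 CPM. In CA1 and CA2/CA3 the Nrxn3 ratios lay between -0.07 and 0.10. Nlgn1 in inhibitory nuclei was above wild type by 0.35, 0.32 and 0.26, where the 90th percentile of all genes was 0.27, 0.27 and 0.29. It was above by less within the branches (0.20, 0.19 and 0.19 in MGE-type, 0.16, 0.03 and 0.11 in CGE-type nuclei). Lamp5 nuclei, the subtype with the most Nlgn1, were 116 of 939 inhibitory nuclei in wild type and 408 of 2197, 195 of 1146 and 208 of 1298 in the others, and the part of this mix in the ratio was not tested. In granule cells Nlgn1 differed from wild type by 0.01 or less in each library (3683 ± 16.6 CPM, SD, n = 4 libraries).

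Nrxn2 was above wild type in the total library in each of the 4 classes (0.22 to 0.29), in the neuron library by 0.16 to 0.24, and in the astrocyte library by -0.05 to 0.17. Nlgn3 in CA1 lay above wild type by 0.17 (interval -0.03 to 0.37), 0.30 (0.11 to 0.49) and 0.33 (0.13 to 0.52). Nlgn2 in CA1 lay above it by 0.34 (0.18 to 0.49) in the neuron library, and by 0.08 and 0.03 in the others, whose intervals held 0. With nuclei thinned to 1000 UMIs these Nlgn2 ratios were 0.69, 0.64 and 0.85, from 35 UMIs in wild type and 96, 87 and 72 in the others.

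**Figure D5:**
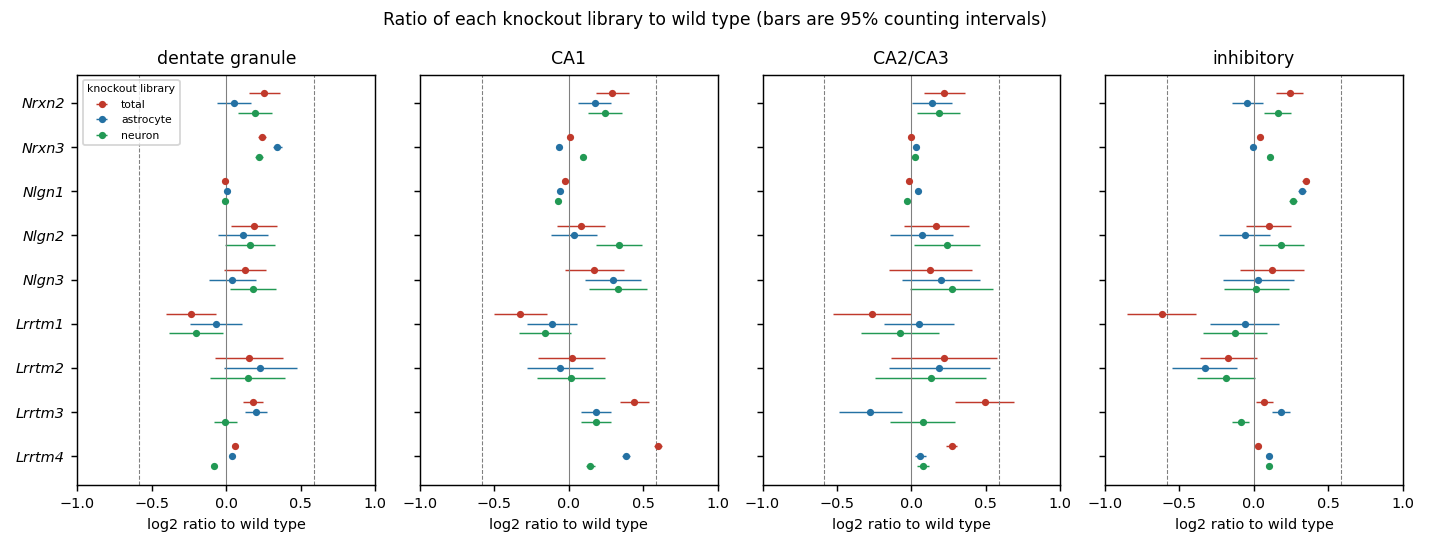
Log2 ratio of each knockout library to wild type for the 9 members in 4 classes, with 95% counting intervals; dashed lines mark 1.5-fold. Lrrtm4 in CA1 (total library, 0.60) and Lrrtm1 in inhibitory nuclei (total library, -0.62) lie past the lines.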

How the data were processed

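Raw UMI counts of genes in single nuclei were deposited by the authors for 4 libraries of mouse hippocampal nuclei, made with a kit that also reads chromatin (RNA only used here). Per the submitters' processing notes, Cell Ranger ARC 2.0.0 and mm10 were used; no label gives the settings for introns or strand. Barcodes with at least 500 genes and at most 5% mitochondrial UMIs were kept and Scrublet doublets removed. Each nucleus was named by its mean marker score, at least 0.5 and 0.25 above the next list. Non-neuronal types and medium spiny, thalamic, Cajal-Retzius and immature neurons needed a score of 1.5. Inhibitory branches and subtypes were split by a margin of 0.25, without a minimum score. These thresholds were set after marker scores and clusters had been seen. Leiden clusters, made without the members, were the alternative. The members and lists were chosen with earlier results of these data known.

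UMIs were summed per library and class (at least 20 nuclei) and tested between classes with edgeR 4.0.16 (quasi-likelihood, library as block, Benjamini-Hochberg over all genes, 0.05; R 4.3.3), with DESeq2 1.42.0 as an alternative. The fit was tested on simulated data with a fixed dispersion, few changed genes and no difference between libraries but depth. For granule cells against CA1 (15635 genes), 92% of log2 changes of 1 and 30% of changes of 0.5 were recovered. The real data differ in these settings, so the shares do not give the power of the reported fits. The fit that includes glia was not simulated. Genotypes were compared as CPM ratios with exact binomial 95% intervals, over genes of at least 100 UMIs; counts of genes past a fold were made with 1 UMI added to each sum, which put the male-only Lrrtm1 ratio in inhibitory nuclei just past 1.5-fold. Python 3.11.15 and scanpy 1.11.5 were used. All members were named; from each other list at most the 3 genes of largest change per contrast, and for each member the 3 genes most alike, of which some are not reported here. The CA1 clusters of at least 100 nuclei were described after the data had been seen. Intervals cover counting error only.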

Additional observations from a re-analysis of the deposited data

Results flagged for a closer look

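Nlgn1 lay above wild type in inhibitory nuclei of all 3 knockout libraries (log2 ratios 0.35, 0.32 and 0.26) and below it in CA1 nuclei (-0.03, -0.06 and -0.08), a difference of means of 0.37. The 90th percentile of the ratios of all genes in inhibitory nuclei was 0.27, 0.27 and 0.29. Within CGE-type nuclei the Nlgn1 ratios were 0.16, 0.03 and 0.11. Lrrtm2 lay below wild type in inhibitory nuclei (-0.17, -0.33 and -0.19) and above it in CA2/CA3 (0.22, 0.19 and 0.13) and granule cells (0.15, 0.23 and 0.14), differences of 0.41 and 0.40. The counting intervals of these Lrrtm2 ratios held 0 except that of the astrocyte library in inhibitory nuclei (-0.55 to -0.11). What drew attention is that all 3 libraries moved one way in 1 class and the opposite way in another. The difference was not tested, and the 3 ratios of a class share the wild-type library, so a shift in that library alone moves all of them.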

How the results depend on the processing

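Of single-member fits across the alternatives, 648 were counted as unchanged, 57 lost the call, 13 gained one and 2 turned direction. A turn was counted only where the main or the alternative fit was called. The 648 kept their side of the threshold but can hold turns between fits without a call. The 2 turns came with cells taken by cluster. There Lrrtm2 and Lrrtm4 in MGE-type against CGE-type nuclei stood at 0.018 (adjusted p = 0.90) and 0.050 (adjusted p = 0.69, edgeR). Leaving out 1 library each, members called ranged from 8 to 9 (granule cells against CA1), 7 to 8 (against CA2/CA3), 7 to 8 (CA1 against CA2/CA3), 4 to 6 (MGE-type against CGE-type), 5 to 8 (inhibitory), 5 to 6 (astrocyte), 4 to 6 (oligodendrocyte, lowest without the total library) and 3 to 5 (precursor, lowest without the wild-type library). The labels give no replicate numbers; without the library as replicate block 7, 6, 7, 5, 5, 6, 6 and 6 members were called in the same order. Ratios past 1.5-fold, 0 in granule cells, 1 in CA1, 0 in CA2/CA3 and 1 in inhibitory nuclei, became 1, 6, 1 and 3 at the smaller fold that was tried. By cluster they were 3 in CA1 and 3 in CA2/CA3, with male nuclei only 2 and 1, and with doublets kept 1 in CA2/CA3. Thinned to 1000 UMIs they were 7 in CA1 and 2 in inhibitory nuclei, where TMM scaling left 0. Shares over all genes were not counted for the smaller fold or these other settings, so such counts are not read as a result. The Lrrtm4 ratio in CA1 of the total library ranged from 0.60 to 0.82 over these alternatives, and that of Lrrtm1 in inhibitory nuclei from -0.69 to -0.56. The cause of these changes was not tested. Depth limits Nlgn2, Nlgn3, Lrrtm1 and Lrrtm2 most, which 1000 UMIs show in few nuclei.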

Other observations

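Medium spiny neurons, a striatal type that entered no contrast, held Lrrtm3 at 757 and 796 CPM and Nrxn3 at 6658 and 9088 CPM in the wild-type (32 nuclei) and total (720 nuclei) libraries. Among CA2/CA3 nuclei, 3 clusters of at least 100 nuclei differed in Lrrtm4 from 1032 to 3220 CPM and in Lrrtm3 from 4.88 to 37.1 CPM.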
